A study of Mus musculus with 6 samples.

Results

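Periostin (*Postn*), nephronectin (*Npnt*), tenascin-C (*Tnc*), fibronectin (*Fn1*), thrombospondin 1 (*Thbs1*), *Sparc*, *Egfl6* and *Fras1* are 8 non-collagen matrix genes made by hair follicle keratinocytes. They were taken by gene symbol from the 22295 genes of the count table, with earlier results of these data known, and all 8 were among the 21681 genes that had a count in at least 1 library and were tested. RNA was sequenced from GFP-positive keratinocytes sorted from the epidermis of mice bred on FVB (FVB/N per the methods), with 3 libraries of K19 *Itga3* WT mice and 3 of K19 *Itga3* KO mice. Both groups carried the tamoxifen-inducible Cre driven by the *K19* promoter and the mT/mG reporter, which turns from Tomato to GFP where Cre has acted, and the KO mice also carried floxed *Itga3*. Per the labels, all mice received tamoxifen at 6 weeks of age over 4 days, 1 dose of 30 µg DMBA at 7 weeks, and then bi-weekly TPA at 12.34 µg, so no library came from untreated skin. The paper describes the treatment of these mice as short-term, at a stage before tumors had formed. Because *K19* is active in bulge cells, the GFP-positive fraction holds bulge cells and their progeny and not the whole epidermis. Following the table's column order, libraries are named WT a to c and KO a to c, and the study describes 3 mice per group.

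Matricellular proteins such as periostin, tenascin-C, thrombospondin 1 and SPARC are secreted into the matrix but act mainly by changing how cells attach and respond to growth factors, and many are induced in wounds and tumors. Fibronectin is an adhesive matrix protein that cells assemble into fibrils through integrins. The bulge, the stem cell niche of the hair follicle, has a basement membrane of its own kind, with nephronectin and EGFL6 that follicle stem cells deposit and that serve the arrector pili muscle and nerve endings. FRAS1 belongs to the Fraser complex, which anchors the epidermis to the dermis below the basement membrane. Integrin α3β1, whose α subunit *Itga3* encodes, binds laminins in that membrane.

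Depth ranged from 20578309 to 23670507 counts per library, at which the floor of 3 counts stands for 0.128 to 0.145 CPM, the unit used here for counts relative to the library total. These values were scaled by TMM factors, which ranged from 0.981 to 1.03. The targeted gene *Itga3* was measured at 371, 252 and 271 CPM across WT a to c, and at 131, 124 and 134 CPM across KO a to c, with no overlap (log2 fold change -1.20, SE 0.13, edgeR adjusted p = 0.00283). Without WT c or KO a the log2 fold change of *Itga3* was -1.27 or -1.21, with an edgeR adjusted p of 0.130 or 0.0934. The basal keratinocyte marker *Krt5* lay between 14267 and 23976 CPM and the bulge marker *Krt15* between 9616 and 15459 CPM over the 6 libraries. The endothelial markers *Cdh5* and *Emcn*, the muscle marker *Des*, the myeloid marker *Lyz2* and the fibroblast markers *Lum*, *Dpt* and *Corin* had at most 3 counts in every library. Other markers of such cells were detected, among them *Col1a1* at 26.9 to 123 CPM and *Tek* at 1.06 to 5.23 CPM, as given below.

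Promoter sequence from RefSeq (build GRCm38.p6, the 250 bases before the annotated start) was held for 5 of the 8 genes, *Postn*, *Npnt*, *Tnc*, *Sparc* and *Egfl6*. *Fn1*, *Thbs1* and *Fras1* are named only. The windows of *Postn*, *Egfl6* and *Tnc* are shown because, among the 5 genes with a window, log2 CPM over the 6 libraries had its highest Pearson correlation between *Postn* and *Egfl6* (0.92) and its lowest between *Postn* and *Tnc* (-0.68). They are written 5′ to 3′ on the strand of the gene, with capitals marking matches to a TATA box (TATAAA) or a GC box (GGGCGG), searched on both strands.
*Postn*, chr3:54360857-54361106, plus strand: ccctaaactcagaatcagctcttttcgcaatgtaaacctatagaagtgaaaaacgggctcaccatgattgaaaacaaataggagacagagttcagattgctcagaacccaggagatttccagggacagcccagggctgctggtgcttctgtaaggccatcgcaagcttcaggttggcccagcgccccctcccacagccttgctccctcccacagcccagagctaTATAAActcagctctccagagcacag
*Egfl6*, chrX:166585717-166585966, minus strand: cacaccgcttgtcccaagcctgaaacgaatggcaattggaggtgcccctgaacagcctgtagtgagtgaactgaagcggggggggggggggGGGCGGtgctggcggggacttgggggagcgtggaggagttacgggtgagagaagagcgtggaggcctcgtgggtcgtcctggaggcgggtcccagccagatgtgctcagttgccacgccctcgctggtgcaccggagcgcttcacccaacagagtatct
*Tnc*, chr4:64047016-64047265, minus strand: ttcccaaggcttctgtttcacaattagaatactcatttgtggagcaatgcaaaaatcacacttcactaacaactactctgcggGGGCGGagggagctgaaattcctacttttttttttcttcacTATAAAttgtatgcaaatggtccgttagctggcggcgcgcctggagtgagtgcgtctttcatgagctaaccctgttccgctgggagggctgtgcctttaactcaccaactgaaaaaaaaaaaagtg
The *Postn* window held a TATA box whose first base lies 26 bases before the start, and *Tnc* held one at 126 bases and a GC box at 167 bases. *Egfl6* held 1 GC box at 159 bases, *Npnt* held GC boxes at 88, 77 and 19 bases, and *Sparc* held neither motif. A TATA box occurred in 12.4% and a GC box in 32.7% of all 32851 windows of this length. The AP-1 motif TGANTCA, present in 6.75% of all windows, and the TEAD motif GGAATG, present in 12.6%, were not found in any of the 5 windows, which says only that these letters are absent there. GC content was 52% in *Postn*, 44.8% in *Tnc*, 54% in *Sparc*, 64.8% in *Egfl6* and 74% in *Npnt*, against a median of 52.4% over all windows.

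The 8 genes spanned a wide range of levels in these keratinocytes. Per kb of exon, with all exons of a gene merged, the level of *Postn* averaged 652 CPM per kb in WT libraries (SD 234, n = 3) and 366 CPM per kb in KO libraries (SD 39.1, n = 3), which put it at the 99.8th percentile of genes. *Thbs1*, which encodes a trimeric glycoprotein that binds CD36 and CD47 and activates latent TGF-β, came next at 172 ± 24.3 in WT and 123 ± 26.3 CPM per kb in KO libraries. *Sparc*, *Tnc* and *Npnt* followed with group means between 60.7 and 78.2 CPM per kb, and the order of these 3 was not separated: *Sparc* lay above *Tnc* in 3 of 6 libraries and *Tnc* above *Npnt* in 3 of 6. *Egfl6* was at 26.1 ± 8.49 in WT and 16.3 ± 2.42 CPM per kb in KO libraries, and *Fn1* at 7.30 ± 2.76 and 4.77 ± 0.354. *Fras1*, the longest of the genes with 17.709 kb of exon, had the lowest level, 1.09 ± 0.143 CPM per kb in WT and 1.84 ± 0.433 in KO libraries, at the 49.5th percentile. The ranges of all other neighbours in this order did not overlap. Every gene was well above the floor, with at least 370 counts in each library.

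**Figure D1:**
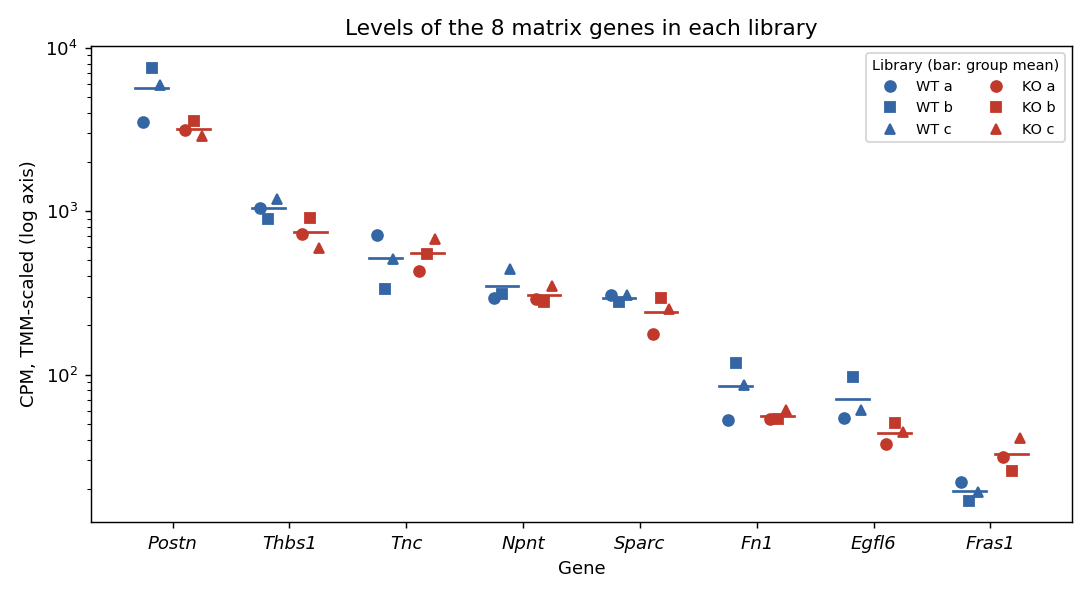
Level of each of the 8 matrix genes in each library, in TMM-scaled CPM on a log axis that is not divided by gene length, with WT libraries in blue, KO libraries in red and a bar at the mean of each group. *Postn* spans 2886 to 7558 CPM, *Egfl6* is lower and *Fras1* higher in every KO library, and the other genes have overlapping groups.

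When KO was compared with WT, none of the 8 genes passed an adjusted p of 0.05 in edgeR's quasi-likelihood test with Benjamini-Hochberg adjustment over all genes, against 146 of all genes tested (0.673%). At an unadjusted p under 0.05, 5 of the 8 genes passed (*Postn*, *Fn1*, *Thbs1*, *Egfl6* and *Fras1*), against 11.5% of all genes. All genes tested included 4965 with at most 3 counts in every library, whereas each of the 8 had at least 370, so the bases differ in power. The KO mean was below the WT mean for 6 genes and above it for *Tnc* and *Fras1*, and the median log2 fold change of the 8 genes was -0.39, against 8.82e-05 for all genes. The libraries of the groups did not overlap for *Egfl6* and *Fras1*, 2 of 8 genes, against 16.3% of all genes. DESeq2, which assigned an adjusted p to 13690 genes, called *Postn*, *Egfl6* and *Fras1* (3.99% of those genes passed), and limma-voom called none of the 8 (0.111% of genes passed). In bulk samples, fewer cells that make a transcript and less of it per cell cannot be told apart, which holds for every comparison here.

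**Figure D2:**
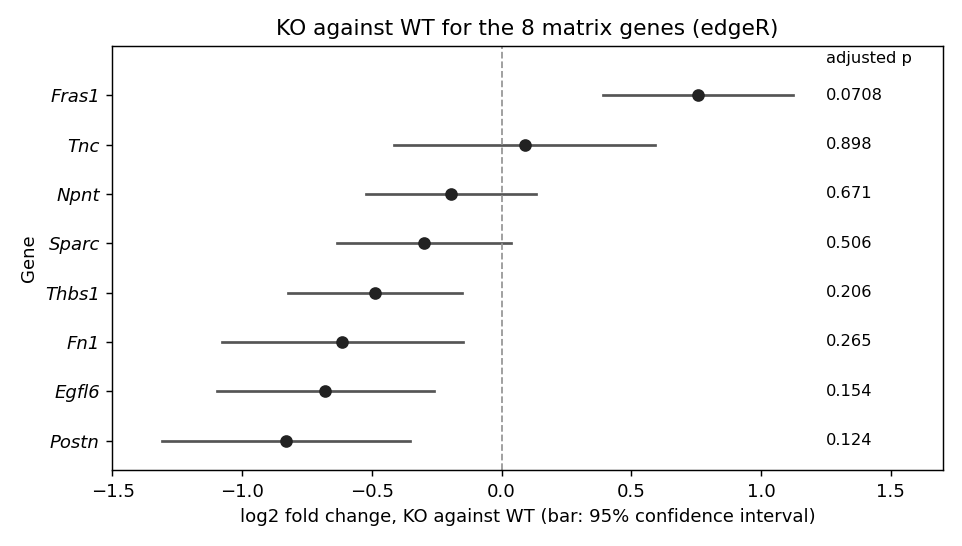
Log2 fold change of KO against WT for the 8 matrix genes from edgeR, with 95% confidence intervals as bars and adjusted p at the right. Intervals of *Postn*, *Egfl6*, *Fn1* and *Thbs1* lie below 0 and that of *Fras1* above 0, while those of *Sparc*, *Npnt* and *Tnc* include 0, and the adjusted p is lowest for *Fras1* at 0.0708.

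*Postn* (ENSMUSG00000027750, chromosome 3, 54361109 to 54391034, build GRCm38) encodes a fasciclin-domain protein that binds αv integrins and cross-links collagen and tenascin-C. It was measured at 3511, 7558 and 5947 CPM across WT a to c, and at 3119, 3555 and 2886 CPM across KO a to c. WT b and WT c were far above every KO library, whereas WT a lay within the KO range, just under KO b, so the groups overlapped. The KO mean of 3186 ± 340 CPM (SD, n = 3) was 56.2% of the WT mean of 5672 ± 2037 CPM (SD, n = 3), a log2 fold change of -0.83 (SE 0.22, 95% interval -1.31 to -0.35, edgeR adjusted p = 0.124). The call turned on WT a: without it the log2 fold change was -1.08 with an edgeR adjusted p of 0.00334, and without the highest library, WT b, it was -0.57 with an adjusted p of 0.294. With all libraries, the DESeq2 adjusted p was 0.0116.

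*Fn1* (ENSMUSG00000026193, chromosome 1, 71585520 to 71653200) had the same order of WT libraries as *Postn*, with 52.8, 117 and 85.9 CPM across WT a to c. KO a, b and c were close together at 53.6, 53.2 and 60.6 CPM, and WT a was below all of them. The means were 85.3 ± 32.2 CPM in WT and 55.8 ± 4.14 CPM in KO libraries (SD, n = 3 each), a log2 fold change of -0.61 (SE 0.21, edgeR adjusted p = 0.265). Without WT a it was -0.86 with an edgeR adjusted p of 0.00891, and without WT b it was -0.31 with an adjusted p of 0.623.

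*Tnc* (ENSMUSG00000028364, chromosome 4, 63959785 to 64047015) encodes a large multi-armed glycoprotein that modulates adhesion to fibronectin and is deposited around hair follicles and in wounds. Its level was 711, 333 and 511 CPM across WT a to c, and 432, 546 and 677 CPM across KO a to c. The order among WT libraries was the reverse of that of *Postn* and *Fn1*, with WT a highest and WT b lowest, and all KO libraries lay between them. The log2 fold change was 0.09 (SE 0.23, 95% interval -0.41 to 0.59, edgeR adjusted p = 0.898), so these data leave room for a difference of either sign. Its sign turned to negative without WT b (-0.15) and without KO c (-0.08).

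*Thbs1* (ENSMUSG00000040152, chromosome 2, 118111876 to 118127133) was at 1049, 894 and 1189 CPM across WT a to c, and at 725, 913 and 596 CPM across KO a to c. The groups overlapped only through the lowest WT library, WT b, and the highest KO library, KO b. The KO mean of 744 ± 160 CPM was 71.3% of the WT mean of 1044 ± 148 CPM (SD, n = 3 each), a log2 fold change of -0.49 (SE 0.15, 95% interval -0.82 to -0.15, edgeR adjusted p = 0.206). In contrast to *Postn* and *Fn1*, *Thbs1* placed WT a between the other WT libraries.

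*Sparc* (ENSMUSG00000018593, chromosome 11, 55394500 to 55420080) encodes a collagen-binding, counter-adhesive protein. The WT libraries were tight, at 306, 277.5 and 305 CPM across WT a to c, while KO a, b and c were at 176, 294 and 251 CPM. KO b lay above WT b, and KO a alone was far below the rest. The log2 fold change was -0.30 (SE 0.15, 95% interval -0.63 to 0.04, edgeR adjusted p = 0.506), and it was -0.12 without KO a and -0.46 without KO b.

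*Npnt* (ENSMUSG00000040998, chromosome 3, 132881745 to 132950291), which encodes the bulge ligand of integrin α8β1, was at 293, 312 and 443 CPM across WT a to c, and at 291, 277.8 and 346 CPM across KO a to c. WT c was the highest library and the other WT libraries lay within the KO range. The log2 fold change was -0.19 (SE 0.15, 95% interval -0.52 to 0.13, edgeR adjusted p = 0.671), and without WT c it was 0.01.

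*Egfl6* (ENSMUSG00000000402, chromosome X, 166523007 to 166585720) encodes an EGF-repeat and MAM-domain protein that is laid down in the upper bulge next to nerve endings. It was at 54.0, 96.8 and 61.0 CPM across WT a to c, and at 37.4, 50.5 and 44.3 CPM across KO a to c. All KO libraries lay below all WT libraries, with WT a the closest to KO b. The KO mean of 44.1 ± 6.55 CPM was 62.4% of the WT mean of 70.6 ± 23.0 CPM (SD, n = 3 each), a log2 fold change of -0.68 (SE 0.19, 95% interval -1.10 to -0.26, edgeR adjusted p = 0.154). The edgeR adjusted p was 0.0313 without WT a (log2 fold change -0.84) and 0.291 without WT b (-0.38), and the DESeq2 adjusted p with all libraries was 0.0458.

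*Fras1* (ENSMUSG00000034687, chromosome 5, 96373955 to 96784728) was the only one of the 8 genes with all KO libraries above all WT libraries. Its counts were 479, 370 and 431 across WT a to c, and 737, 549 and 846 across KO a to c, which gave 22.0, 16.9 and 19.0 CPM in WT and 31.3, 25.7 and 40.9 CPM in KO libraries. The KO mean of 32.7 ± 7.67 CPM was 169% of the WT mean of 19.3 ± 2.53 CPM (SD, n = 3 each), a log2 fold change of 0.76 (SE 0.17, 95% interval 0.39 to 1.12, edgeR unadjusted p = 0.000748, adjusted p = 0.0708). The adjusted p was 0.00496 in DESeq2 and 0.172 in limma-voom. It also passed in edgeR without WT a (0.87, adjusted p = 0.0283) and without KO b (0.91, adjusted p = 0.0280), and missed the threshold when any of the other libraries was left out, with a log2 fold change of 0.56 at the lowest, without KO c.

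**Figure D3:**
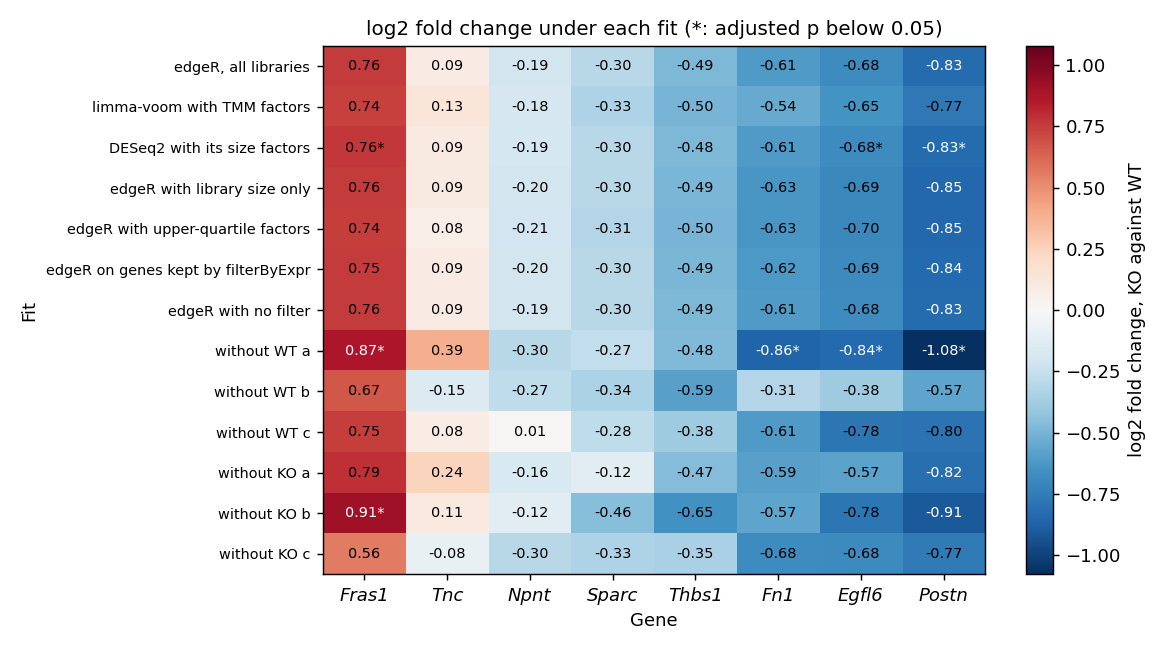
Log2 fold change of KO against WT for the 8 matrix genes (columns) under the edgeR fit with all libraries and 12 other fits (rows), with blue for negative and red for positive values and an asterisk where the adjusted p was below 0.05. Values of *Postn* run from -1.08 to -0.57 and those of *Fras1* from 0.56 to 0.91, asterisks appear with DESeq2, without WT a and without KO b, and the sign of *Tnc* and *Npnt* differs between fits.

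Leaving out WT a brought the number of the 8 genes that passed in edgeR to 4 (*Postn*, *Fn1*, *Egfl6* and *Fras1*), when 2.44% of the genes tested in that fit passed, and leaving out KO b brought it to 1 (*Fras1*), when 0.941% did. WT a stood apart in its summed proliferation markers as well. The summed level of *Mki67*, *Top2a*, *Ccnb1*, *Cdk1* and *Pcna* was 264 CPM in WT a, 690 in WT b and 798 in WT c, and lay between 463 and 693 CPM in the KO libraries, although *Pcna* alone was lower in WT b (96.6 CPM) than in WT a (115 CPM). The highest of the WT libraries was 2.15 times the lowest for *Postn*, 2.22 times for *Fn1* and 2.14 times for *Tnc*, while the same ratio over KO libraries was 1.23, 1.14 and 1.57. WT a was the lowest WT library for *Postn*, *Fn1*, *Egfl6*, *Npnt* and the summed proliferation markers and the highest for *Tnc*, *Sparc* and *Fras1*. WT b was the highest WT library for *Postn*, *Fn1* and *Egfl6* and the lowest for *Tnc*, *Thbs1*, *Sparc* and *Fras1*. The Pearson correlation of log2 CPM with the proliferation sum was 0.66 for *Npnt*, 0.64 for *Fn1*, 0.46 for *Postn* and 0.26 for *Egfl6*. It was -0.01 for *Fras1*, -0.10 for *Sparc*, -0.19 for *Thbs1* and -0.47 for *Tnc*. The part of proliferation in the differences between libraries was not tested.

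**Figure D4:**
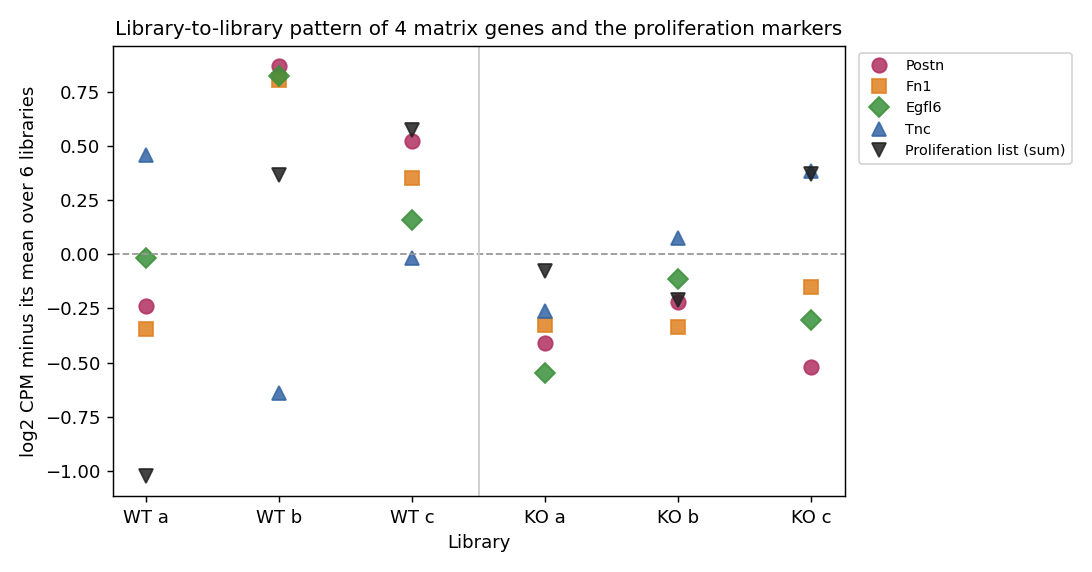
Log2 CPM of *Postn*, *Fn1*, *Egfl6* and *Tnc* and of the summed proliferation markers in each library, as the difference from the mean over the 6 libraries (dashed line), with WT libraries at the left and KO libraries at the right. *Postn*, *Fn1* and *Egfl6* are highest in WT b, where *Tnc* is lowest, and the proliferation sum is lowest in WT a.

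As a description over 6 libraries that also differ in genotype, the Pearson correlation of log2 CPM was 0.94 between *Postn* and *Fn1*, 0.92 between *Postn* and *Egfl6* and -0.88 between *Postn* and *Fras1*. *Postn* and *Tnc* had a correlation of -0.68. The genes whose levels tracked each member most closely, among 8574 genes with a mean log2 CPM above 4, reached correlations between 0.966 and 0.9996, each being the highest of that many values over 6 points that share their groups and depth. They were *Heca* and *Wash* for *Postn*, *Cntrl* and *Toe1* for *Fn1*, *Neo1* and *Camkk2* for *Tnc*, and *Ankrd50* and *C87436* for *Thbs1*. For *Sparc* they were *Pip4k2c* and *Sorbs3*, for *Npnt* *Slc25a10* and *Pola2*, for *Egfl6* *Cd59a* and *Slc25a36*, and for *Fras1* *Arhgef19* and *Upf1*. None of these 16 genes passed an adjusted p of 0.05 in edgeR.

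Receptors and relatives of the 8 genes were read from 4 lists with 53 genes, of which 52 were tested. In edgeR 1 passed, *Itga4*, against 0.673% of all genes tested. DESeq2 called 5, *Itga4*, *Cd47*, *Tnxb*, *Tgfbi* and *Ltbp2*, against 3.99% of the 13690 genes to which it assigned an adjusted p. Some of the 52 genes were not among these 13690, so 5 of 52 and 3.99% have unlike bases. Beside each statement below that groups did not overlap stands the share of all genes for which this held, 16.3%. *Itga4* (chromosome 2, 79255426 to 79333123), whose α4 subunit binds fibronectin, was the one called among 15 receptor genes, with 68, 81 and 69 counts across WT a to c and 22, 26 and 21 across KO a to c. These counts stood for 3.12, 3.71 and 3.04 CPM in WT and 0.935, 1.22 and 1.02 CPM in KO libraries, so the groups were apart at a low level. *Itga4* fell by 1.64 on the log2 scale (SE 0.25, edgeR adjusted p = 0.0187), and the adjusted p was 0.0647 in limma-voom, 0.0502 among genes kept by filterByExpr, 0.244 without WT c, 0.182 without KO a and 0.0995 without KO c. The median log2 fold change of the receptor genes was -0.01.

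No family relative passed in edgeR with all libraries among 15 tested, of which *Tnn*, *Thbs4*, *Sparcl1* and *Spock3* had at most 3 counts in every library. The median log2 fold change was -0.32, which was that of *Tnr*, a gene with at most 6 counts in every library. Relatives with more counts lay on both sides of 0, such as *Thbs3* at 0.31 and *Tgfbi* at -0.33. The smallest unadjusted p belonged to *Tnxb*, which encodes tenascin-X, with 4.31, 14.9 and 6.26 CPM across WT a to c and 1.40, 3.38 and 2.51 CPM across KO a to c. Its groups did not overlap, but WT b was far above the other WT libraries. The log2 fold change of *Tnxb* was -1.81 (SE 0.43), with an adjusted p of 0.0897 in edgeR and 0.00398 in DESeq2. In limma-voom the adjusted p was 0.247, and among genes kept by filterByExpr 0.189. In edgeR it was 0.0151 without WT a, and between 0.0952 (without KO b) and 0.559 (without KO a) with any other library left out. The most abundant relative was *Tgfbi*, a fasciclin-domain relative of periostin, at 1307 ± 22.6 CPM in WT and 1043 ± 95.8 CPM in KO libraries (SD, n = 3 each). Its log2 fold change was -0.33 with an adjusted p of 0.201 in edgeR and 0.0327 in DESeq2.

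The Fraser complex list gave no call in edgeR or DESeq2 among 4 tested genes, with a median log2 fold change of -0.18, and *Frem3* was not analysed here. *Vwa2*, which had both the highest level and the smallest p in that list and encodes a basement membrane protein that binds the complex, was at 244, 288 and 175 CPM across WT a to c and at 146, 211 and 229 CPM across KO a to c. Its groups overlapped, and its log2 fold change of -0.27 (edgeR adjusted p = 0.638) was of the opposite sign to that of *Fras1*. *Frem2* had the same sign as *Fras1*, at 0.17 (edgeR adjusted p = 0.681). *Frem1*, at -0.47, and *Grip1*, at -0.10, had the opposite sign, and the groups of all of these overlapped. Among 18 other non-collagen matrix glycoproteins none passed in edgeR with all libraries, the median was -0.01, and *Spp1*, *Vtn* and *Edil3* had at most 3 counts in every library. *Ltbp2*, a microfibril-associated protein of the latent TGF-β binding protein family, had the smallest p in that list, with 502, 552 and 497 CPM across WT a to c and 225, 406 and 302 CPM across KO a to c. All KO libraries were below all WT libraries (log2 fold change -0.73, SE 0.17, edgeR adjusted p = 0.0843). The adjusted p of *Ltbp2* was 0.00608 in DESeq2 and 0.0126 in edgeR without KO b. In limma-voom it was 0.158, and among genes kept by filterByExpr 0.170. With any other library left out it lay between 0.0540 (without WT a) and 0.424 (without WT c). The most abundant of these genes, *Ltbp4*, was at 618 ± 146 CPM in WT and 544 ± 63.5 CPM in KO libraries (SD, n = 3 each, edgeR adjusted p = 0.681).

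Since *Postn*, *Fn1*, *Sparc* and *Tnc* are also made by dermal cells, markers of other cells were read beside them. The 9 fibroblast markers summed to between 116 and 178 CPM in WT and between 48.2 and 80.4 CPM in KO libraries, with no overlap, and none of the 9 passed in edgeR. The sum was carried by *Col1a1*, at 123, 40.4 and 92.9 CPM across WT a to c and 26.9, 46.2 and 39.3 CPM across KO a to c, and by *Col1a2*. *Col1a2* was at 53.1, 72.9 and 59.8 CPM across WT a to c and 15.3, 31.8 and 34.9 CPM across KO a to c, with every KO library below every WT library (log2 fold change -1.18, SE 0.24, edgeR adjusted p = 0.0555, DESeq2 adjusted p = 0.00073). *Dcn* went the other way, at 0.826, 1.69 and 0.573 CPM across WT a to c and 5.44, 1.55 and 4.11 CPM across KO a to c. Its log2 fold change was 1.84 (SE 0.47, edgeR adjusted p = 0.113, DESeq2 adjusted p = 0.0161). *Pdgfra*, also low, had a log2 fold change of -1.30 (edgeR adjusted p = 0.203). The median log2 fold change of the 9 markers was 0.40, which was that of *Dpt*, a gene with at most 3 counts in every library. For *Col1a1* it was -1.19 (edgeR adjusted p = 0.127). *Col3a1*, *Lum*, *Dpt* and *Corin* had at most 3 counts in every library, apart from 29 counts of *Col3a1* in KO c. Among WT libraries, *Col1a2* had the same order as *Postn* and *Fn1*, with WT b highest and WT a lowest, whereas *Col1a1* had the reverse order. The part of such cells in the lower levels of *Postn*, *Fn1* and *Sparc* was not tested beyond these values.

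The other marker lists of non-epithelial cells were low. Smooth muscle and pericyte markers, led by *Cnn1*, summed to between 4.17 and 8.44 CPM in WT and between 4.72 and 8.46 CPM in KO libraries. Endothelial markers, led by *Tek*, summed to between 5.56 and 8.67 CPM in WT and between 3.70 and 4.97 CPM in KO libraries, without overlap. *Tek* was at 2.16 to 5.23 CPM in WT and 1.06 to 1.55 CPM in KO libraries, while *Pecam1* went the other way, at 0.964 to 1.41 and 1.64 to 1.87 CPM, *Cdh5* and *Emcn* were near 0, and their part in any result was not tested. Immune markers, led by *Cd74*, summed to between 6.50 and 11.6 CPM in WT and between 7.14 and 10.5 CPM in KO libraries. Melanocyte markers, led by *Dct*, summed to between 6.93 and 14.4 CPM in WT and between 11.6 and 12.7 CPM in KO libraries. None of the genes in these 4 lists passed in edgeR.

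Among keratinocyte lists, the bulge markers summed to between 12237 and 18329 CPM in WT and between 11487 and 14911 CPM in KO libraries, and the ranges overlapped. Most of that sum was *Krt15*, at 9798 to 15459 CPM in WT and 9616 to 12494.5 CPM in KO libraries. *Cd34*, a bulge marker, was the one of the 6 that passed, with 881, 806 and 872 CPM across WT a to c and 399, 624.5 and 526 CPM across KO a to c. Its log2 fold change was -0.72, with an adjusted p of 0.0462 in edgeR, 0.119 in limma-voom and 0.000572 in DESeq2. *Lgr5* had a log2 fold change of -0.47 with overlapping groups (edgeR adjusted p = 0.283). The only positive one in the list was that of *Sox9*, 0.16 (edgeR adjusted p = 0.633). Basal markers summed to between 26889 and 40586 CPM in WT and between 31196 and 36278 CPM in KO libraries, and suprabasal markers, led by *Krt1*, to between 1149 and 1626 and between 1405 and 1438 CPM. Of the 7 inner root sheath and hair shaft genes, led by *Krt73*, *Krt25* (adjusted p = 0.0256) and *Krt35* (adjusted p = 0.0462) rose in edgeR but did not pass in limma-voom, where the adjusted p was 0.192 and 0.256, and the list summed to between 10.97 and 22.0 CPM in WT and between 16.4 and 41.2 CPM in KO libraries. Among the 5 proliferation markers, led by *Mki67*, and the 5 suprabasal and 5 basal markers none passed.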

How the data were processed

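RNA from GFP-positive sorted keratinocytes was sequenced from 3 K19 *Itga3* WT and 3 K19 *Itga3* KO mice. Per the labels and methods, the authors made strand-specific libraries of polyadenylated RNA, aligned reads with TopHat2 2.1.0 and Bowtie 1.1 to build GRCm38, and counted uniquely mapped reads per Ensembl gene by strand. The deposited values are raw counts without normalization, and other deposited columns gave each gene's start and end. No member shares exon bases with another gene on its strand.

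Counts above 0 in at least 1 library put 21681 genes into edgeR 4.0.16 (TMM factors, glmQLFit and glmQLFTest, two-sided, R 4.3.3), with Benjamini-Hochberg adjustment over all of them and a threshold of 0.05. An adjusted p is edgeR's where no tool is named, and limma-voom (limma 3.58.1) and DESeq2 1.42.0 were alternatives. Intervals are at 95% from the edgeR fit, and the floor of 3 counts covers counting error only. No 2 libraries had counts that agreed within sampling noise. CPM values are TMM-scaled counts, and exon lengths and promoters came from GRCm38 references, the annotation of which held 98.9% of the gene identifiers.

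The 8 genes, the 4 partner lists and the 10 cell type lists (fibroblast, smooth muscle and pericyte, endothelial, immune, melanocyte, bulge, basal, suprabasal, inner root sheath and hair shaft, and proliferation) were chosen with earlier results of these data known, so no list is independent evidence. Named in the text were the 8 genes, *Itga3*, in each partner list every called gene or otherwise the gene with the smallest p and the most abundant one, the most abundant gene of each cell type list, and the 2 genes most correlated with each member. *Cd47*, *Pcna*, *Pecam1*, *Col1a2*, *Col3a1*, *Cd34*, *Krt25*, *Krt35* and markers near 0 counts were named after their values were seen. So were *Dcn*, *Pdgfra*, *Lgr5*, *Sox9*, *Frem1*, *Frem2*, *Grip1*, *Tnr* and *Thbs3*.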

Additional observations from a re-analysis of the deposited data

How the results depend on the processing

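No paired analysis was possible because nothing ties the library columns, which carry a genotype and an animal number, to the numbered samples of the labels. Of the 8 matrix genes, 0 passed in edgeR with all libraries, 3 in DESeq2, and 0 to 4 when 1 library was left out. All genes called numbered 146, against 24 in limma-voom, 546 in DESeq2, 15 among the 13811 genes kept by filterByExpr, and 5 (without WT c) to 521 (without WT a) with 1 library left out. Partner genes called numbered 1, against 0 in limma-voom, 5 in DESeq2, 0 after filterByExpr, and 0 to 2 with 1 library left out. With library size alone, upper-quartile factors or no filter, no member passed and every count stayed within 1.5 times. Direction was lost under 3 omissions: the log2 fold change of *Npnt* ran from -0.30 to 0.0127 and that of *Tnc* from -0.15 to 0.39 with 1 library left out, and the cause was not tested. The other 6 members kept their sign in all 12 alternatives. Without division by exon length, *Tnc* and *Npnt* ranked above *Sparc*, and *Fn1* above *Egfl6*. With 3 libraries a group, an adjusted p above 0.05 does not show that a gene did not differ, and omitting a library leaves 2 in its group. Of the 16 genes most like the members, 14 were shared when genes with a mean log2 CPM above 2 were admitted.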
